A study of Arabidopsis thaliana with 12 samples.

Results

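CIK2 (AT2G23950) and CIK4 (AT5G45780) are leucine-rich repeat receptor kinases of Arabidopsis thaliana, and both were measured here among 16548 genes that a feature named singly. They were taken by gene identifier, each with the feature of highest mean, and each gene had 1 such feature (13412149 for CIK2, 13535933 for CIK4). No other feature of the array carried values identical to either. Neither gene has a symbol in the annotation tables used, so the names CIK2 and CIK4 are those given with the gene identifiers that defined the pair.

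CIK proteins belong to a subfamily of short leucine-rich repeat kinases that also contains the SERK and NIK proteins. They act as co-receptors: a CLE peptide, a small secreted signal, is bound by a receptor kinase such as CLV1 or a BAM protein, and CIK proteins join that receptor at the plasma membrane and are needed for the signal inside the cell. In Arabidopsis this pathway is known for limiting stem cell number in the shoot meristem and for acting in the root meristem and phloem.

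The seedlings carried an estradiol-inducible CLE3 transgene in all groups, controls included. Roots of 7 day old plants were treated with estradiol, at 5 mM as the labels give it, or with the solvent DMSO. After 24 h roots and shoots were collected separately and hybridised to one-colour Affymetrix whole-transcript arrays. The 4 groups were roots of estradiol-treated plants, roots of DMSO-treated plants, shoots of estradiol-treated plants and shoots of DMSO-treated plants, with 3 arrays each. The labels do not give the transgenic line, the number of plants per sample or whether replicates were separate cultures, and p-values refer to the variation among these arrays alone, part or all of which may be technical. CLE3 had no named feature, and its induction was not analysed here.

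The arrays titled root DMSO replicate 3 and shoot estradiol replicate 3 were left out of the values below unless stated, which left 10 arrays: 3, 2, 2 and 3 in the order of the groups above. Across all features the first correlated on average at 0.981 with shoots and 0.874 with roots among the 10, and the second at 0.986 with roots and 0.874 with shoots. On the 10 arrays all 4 measured root markers (PYK10, BGLU21, BGLU22 and NAI2) were higher in roots than in shoots under DMSO, and all 4 photosynthesis markers (SBPASE, PRK, RCA and LHCB4.1) were lower, each past the limma threshold. Values are log2 expression as deposited, array medians lay between 4.99 and 5.09, and fewer expressing cells cannot be told apart from less RNA per cell in whole organs.

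CIK2 was higher in roots than in shoots, and CIK4 was lower in roots than in shoots, among plants given DMSO. Estradiol changed neither gene past the threshold in either organ. CIK2 read 6.05, 6.26 and 5.80 in roots with estradiol, and 6.51 and 6.01 in roots with DMSO. In shoots CIK2 read 5.60 and 5.79 with estradiol, and 5.44, 5.44 and 5.75 with DMSO. All 5 root values of CIK2 lay above all 5 shoot values, but the lowest root value (5.80) and the highest shoot value (5.79) almost touched. Over all features, 21.1% had every root array above every shoot array.

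CIK4 read 5.29, 5.26 and 5.22 in roots with estradiol, and 5.19 and 5.31 in roots with DMSO. In shoots CIK4 read 5.61 and 5.42 with estradiol, and 5.68, 5.64 and 5.78 with DMSO. The 5 root values of CIK4 lay within 5.19 to 5.31 and all 5 shoot values lay above them, as was the case for 20.2% of features. Over both treatments CIK4 had an SD of 0.05 (n = 5) in roots and 0.13 (n = 5) in shoots. CIK2 had an SD of 0.27 (n = 5) in roots and 0.17 (n = 5) in shoots. Whether these spreads differ was not tested.

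**Figure D1:**
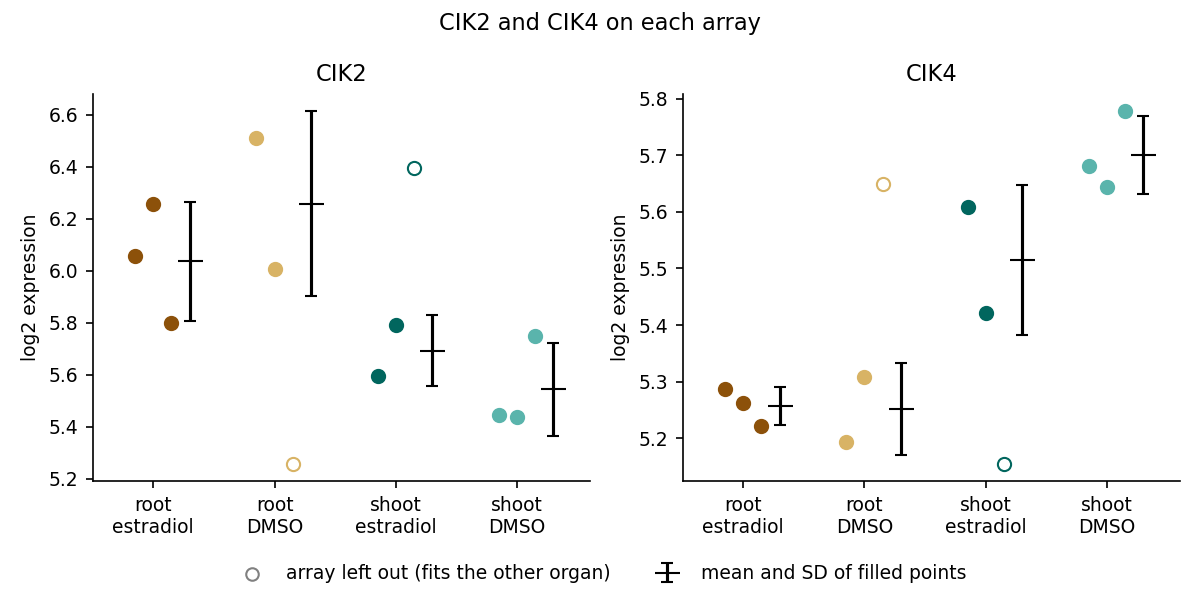
Log2 expression of CIK2 (left) and CIK4 (right) on each of the 12 arrays, by organ and treatment; filled points are the 10 arrays used, open points the 2 arrays left out, and bars show the mean ± SD of the filled points (n = 2 or 3). The filled root points lie at 5.80 to 6.51 for CIK2 and 5.19 to 5.31 for CIK4, the filled shoot points at 5.44 to 5.79 for CIK2 and 5.42 to 5.78 for CIK4, and each open point lies beyond or among the points of the other organ.

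The 2 arrays left out read like the organ their profile resembled for both genes. The array titled root DMSO replicate 3 read 5.26 for CIK2 and 5.65 for CIK4. The array titled shoot estradiol replicate 3 read 6.40 for CIK2 and 5.16 for CIK4. The first of these CIK2 values was below every shoot array of the 10, and the second CIK4 value was below every root array. Both genes were of middling brightness: CIK2 was brighter than 54.1% to 68.2% of the features of its array, and CIK4 brighter than 51.2% to 58.6%.

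CIK2 averaged 6.04 ± 0.23 (SD, n = 3) in roots with estradiol, 6.26 ± 0.36 (SD, n = 2) in roots with DMSO, 5.69 ± 0.14 (SD, n = 2) in shoots with estradiol and 5.54 ± 0.18 (SD, n = 3) in shoots with DMSO. From high to low its order was roots with DMSO, roots with estradiol, shoots with estradiol and shoots with DMSO, and no pair of neighbours in this order passed the test. CIK4 averaged 5.26 ± 0.03 (SD, n = 3) in roots with estradiol, 5.25 ± 0.08 (SD, n = 2) in roots with DMSO, 5.51 ± 0.13 (SD, n = 2) in shoots with estradiol and 5.70 ± 0.07 (SD, n = 3) in shoots with DMSO. Its order was the reverse, and its neighbours also did not pass. For both genes, the ends of the order were the DMSO groups of the 2 organs, and the estradiol groups lay between them. In roots this order rested on root DMSO replicate 1. Without that array, estradiol minus DMSO in roots was 0.031 for CIK2 and -0.05 for CIK4, each of the opposite sign.

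The first comparison was that of the organs in plants given DMSO. CIK2 was 1.64-fold higher in roots (95% interval 1.19 to 2.25), a log2 difference of 0.71 (SE 0.20, limma adjusted p 0.0203). CIK4 in roots was at 0.732 times its shoot level (95% interval 0.612 to 0.877), a log2 difference of -0.45 (SE 0.11, limma adjusted p 0.0126). Organ differences were common on these arrays: 39.2% of all features passed in this comparison, 19.3% higher and 19.9% lower in roots, and the median difference over all features was -0.09. A log2 difference at least as large in size as that of CIK2 was seen for 33.1% of features, and as large as that of CIK4 for 49.9%.

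The CIK2 call was lost without root DMSO replicate 1 (0.46, limma adjusted p 0.176), shoot DMSO replicate 1 (0.66, adjusted p 0.0555) or shoot DMSO replicate 2 (0.66, adjusted p 0.0551), and the CIK4 call without root DMSO replicate 1 (-0.39, adjusted p 0.0976). With a replicate block the CIK2 call was also lost (0.71, limma adjusted p 0.0589), while that of CIK4 held. On all 12 arrays as titled neither call held: CIK2 differed by 0.38 (SE 0.31, limma adjusted p 0.461) and CIK4 by -0.32 (SE 0.16, limma adjusted p 0.279).

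Under estradiol both genes differed in the same directions, but neither passed. The arrays compared were not those of the DMSO comparison, but the estimate of the spread was shared by all 4 groups. CIK2 differed by 0.34 (SE 0.20, limma adjusted p 0.217) between roots and shoots, and its 95% interval ran from -0.11 to 0.80. CIK4 differed by -0.26 (SE 0.11, limma adjusted p 0.110), and its 95% interval ran from -0.52 to 0.0027. In this comparison 39.3% of all features passed, 19.5% higher and 19.8% lower in roots. On 12 arrays the differences were 0.11 (SE 0.31) for CIK2 and -0.14 (SE 0.16) for CIK4. A smaller organ difference under estradiol than under DMSO was not shown, since the test of that change did not pass for either gene.

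Estradiol, the inducer of the CLE3 transgene per the labels, was then compared with DMSO within each organ. In roots, CIK2 differed by -0.22 (SE 0.20, limma adjusted p 0.999), and its values with estradiol and with DMSO overlapped. The 95% interval of this effect ran from 0.625-fold to 1.18-fold. CIK4 in roots differed by 0.0056 (SE 0.11, limma adjusted p 0.999), with an interval of 0.838-fold to 1.20-fold. The 3 root estradiol values of CIK4 lay inside the range of the 2 root DMSO values. In roots 0.0026% of all features passed (1 of 38408, with 1440 at an unadjusted p under 0.05), and neither CIK gene was that feature. The sign for CIK2 rested on root DMSO replicate 1, without which the difference was 0.031, and on 12 arrays it was 0.11 (SE 0.31), while CIK4 was at -0.13 (SE 0.16).

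In shoots, whose roots alone had been treated, CIK2 differed by 0.15 (SE 0.20, limma adjusted p 0.913), with an interval of 0.808-fold to 1.52-fold. CIK4 differed by -0.19 (SE 0.11, limma adjusted p 0.735), with an interval of 0.734-fold to 1.05-fold. Both shoot estradiol values of CIK4 (5.61 and 5.42) lay below the lowest shoot DMSO value (5.64), which was the case for 11.6% of features. The CIK2 values of the treatments overlapped. In limma 0% of features passed in shoots, with 3125 of 38408 at an unadjusted p under 0.05. Without shoot estradiol replicate 2 the effects were 0.05 for CIK2 and -0.09 for CIK4, and without shoot estradiol replicate 1 they were 0.25 and -0.28. On 12 arrays they were 0.38 (SE 0.31) for CIK2 and -0.31 (SE 0.16) for CIK4.

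The estradiol effect in shoots minus that in roots was 0.37 (SE 0.28) for CIK2 and -0.19 (SE 0.16) for CIK4 (limma adjusted p 1.0 for both). Their 95% intervals, on the log2 scale, ran from -0.28 to 1.02 and from -0.56 to 0.18. In this comparison 0.0026% of features passed, with 1828 at an unadjusted p under 0.05. Leaving out single arrays gave 0.12 (without root DMSO replicate 1) to 0.62 (without root DMSO replicate 2) for CIK2. It gave -0.10 (without shoot estradiol replicate 2) to -0.29 (without shoot estradiol replicate 1) for CIK4.

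**Figure D2:**
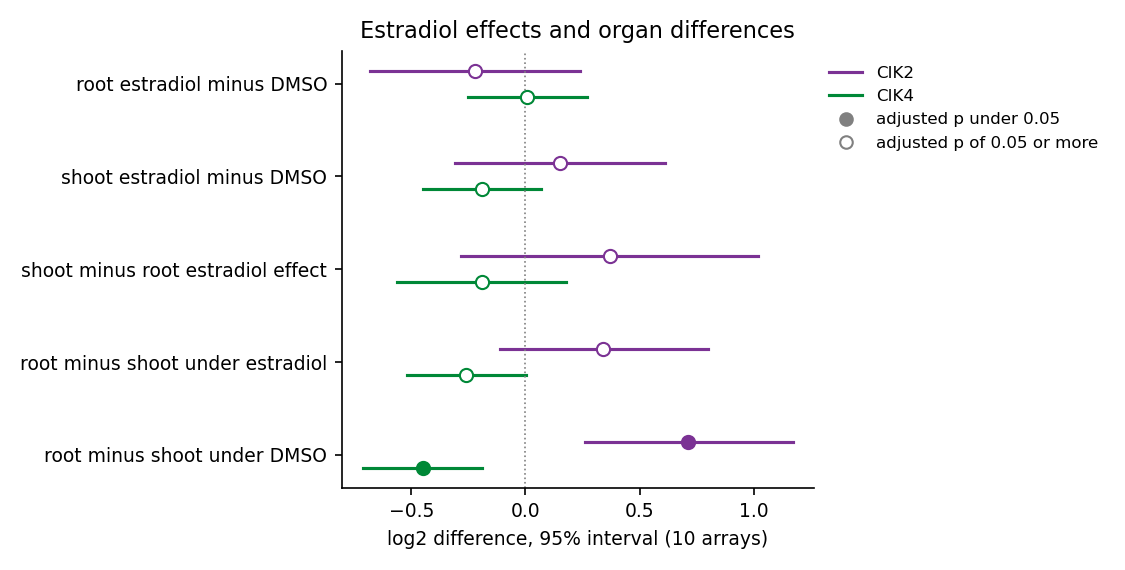
Log2 differences of CIK2 and CIK4 with their 95% intervals on the 10 arrays, for estradiol minus DMSO in each organ, the difference of these effects, and root minus shoot under each treatment; filled points passed the limma threshold. Under DMSO CIK2 lies at 0.71 and CIK4 at -0.45, and the intervals of all estradiol effects include 0.

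The 2 genes were also set against each other within each array, which cancels anything that shifts a whole array. The log2 value of CIK2 minus that of CIK4 was 0.77, 0.99 and 0.58 in roots with estradiol and 1.32 and 0.70 in roots with DMSO. In shoots it was -0.01 and 0.37 with estradiol and -0.24, -0.21 and -0.03 with DMSO. The root values averaged 0.87 ± 0.29 (SD, n = 5) and the shoot values -0.02 ± 0.24 (SD, n = 5), with no overlap. This difference of 0.89 between the organs had a two-sided exact permutation p of 0.00794, the smallest that 5 against 5 arrays allow. That p was fixed in advance, since the organs already separated fully for both genes, in opposite directions. Over all features, 21.1% separated as CIK2 did and 20.2% as CIK4 did. The test thus adds nothing to the separation of each gene. Because the features differ in their probes, the size of CIK2 minus CIK4 in 1 organ does not show which gene has more transcript. On 12 arrays as titled the difference was 0.47, with an exact permutation p of 0.177, and the 2 arrays left out read -0.39 (titled root DMSO replicate 3) and 1.24 (titled shoot estradiol replicate 3).

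**Figure D3:**
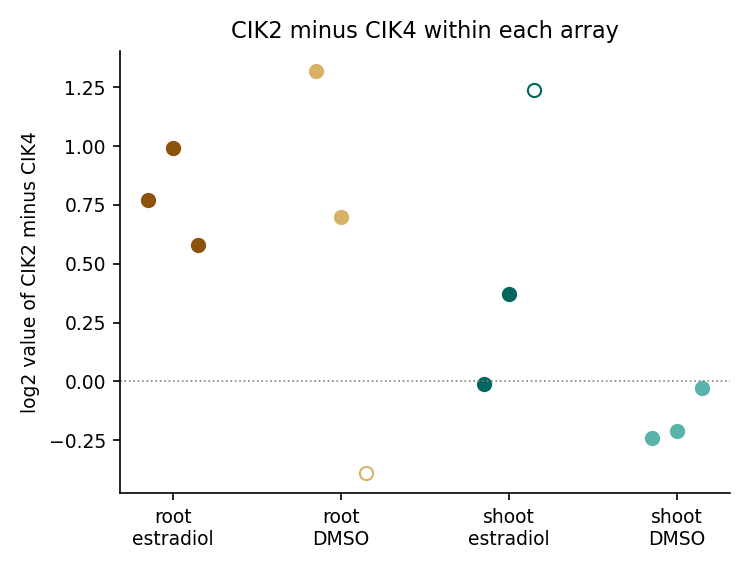
Log2 value of CIK2 minus that of CIK4 within each array, by organ and treatment; filled points are the 10 arrays used and open points the 2 left out. The filled root points lie at 0.58 to 1.32 and the filled shoot points at -0.24 to 0.37.

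Of 39 genes of the pathway listed by gene identifier, CIK2 and CIK4 among them, 12 were measured, and 17 CLE peptide genes, 10 of them matched by gene identifier and 7 by the annotation's symbol alone, were added. The CIK, NIK and other non-SERK genes of the subfamily, called the non-SERK list here, had 5 of 9 measured. The CLE receptors had 3 of 14, the downstream genes 4 of 11 and the SERK co-receptors 0 of 5. Named features for the CLE receptors CLV1 and BAM1 were thus not among those used here. Of the 5 measured genes of the non-SERK list, 3 were higher and 1 lower in roots under DMSO, where 19.3% of all features were higher and 19.9% lower. These counts include the pair: CIK2 was among the 3 higher, and CIK4 was the 1 lower. Besides the pair, AT5G65240 and AT5G10290 were higher and AT5G63710 did not pass. The median difference of the list, 0.71 against -0.09 over all features, was that of CIK2 itself. Under estradiol 3 of the 5 genes were higher, against 19.5% of all features. CIK2 and CIK4 did not pass there, and the median of the list was 0.43 against -0.07 over all features. CIK4 was the one measured member of the list with a negative organ difference. How closely the listed genes are related to CIK4 was not assessed.

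AT5G65240 was higher in roots by 1.11 (SE 0.20, limma adjusted p 0.00189) under estradiol and 0.85 (SE 0.20, adjusted p 0.00801) under DMSO. AT5G10290 was higher in roots by 0.55 (SE 0.18, limma adjusted p 0.0401) under estradiol and 0.89 (SE 0.18, adjusted p 0.00413) under DMSO. AT5G63710 passed under estradiol, at 0.43 (SE 0.12, limma adjusted p 0.0182), and had 0.33 (SE 0.12, adjusted p 0.0551) under DMSO. The 5 root arrays and the 5 shoot arrays did not overlap for any of the 5 genes of the non-SERK list, the pair included. Over all features this held for 41.3%.

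Among the listed CLE receptors and receptor-like proteins, 3 were measured. AT4G28650 (PXL2), a relative of the vascular CLE receptor PXY, was higher in roots by 0.82 (SE 0.16, limma adjusted p 0.00341) under DMSO. CR4 (ACR4), a receptor kinase that acts in the epidermis and in the root tip, was lower in roots, with a difference of -1.11 (SE 0.23, limma adjusted p 0.00427) on a dim feature with a mean of 3.72. AT1G08590 (PXL1) had -0.14 (SE 0.15, limma adjusted p 0.500). Both PXL genes had a second, dimmer feature that gave larger organ differences under DMSO, of 3.23 (SE 0.21) for AT4G28650 and 3.13 (SE 0.26) for AT1G08590. Features of 1 gene can thus differ widely on this array, and CIK2 and CIK4, with 1 feature each, could not be checked in this way.

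Downstream of the receptors, all 4 measured genes were higher in roots under both treatments, against 19.5% of all features under estradiol and 19.3% under DMSO. Their median was 0.66 under estradiol and 0.80 under DMSO, and that of all features was -0.07 and -0.09. POL (POLTERGEIST), a membrane phosphatase that acts in CLV signalling, had 7.35 ± 0.01 (SD, n = 3) in roots with estradiol, 7.38 ± 0.04 (SD, n = 2) in roots with DMSO, 6.63 ± 0.01 (SD, n = 2) in shoots with estradiol and 6.56 ± 0.12 (SD, n = 3) in shoots with DMSO. Its organ difference under DMSO was 0.82 (SE 0.11, limma adjusted p 0.000363). AT3G28690 had the largest of the 4 differences, 1.05 (SE 0.12, limma adjusted p 0.000136) under DMSO.

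Of 17 measured CLE peptide genes, the ligands of the pathway, 2 were higher and 8 lower in roots under DMSO, against 19.3% and 19.9% of all features, and their median was -0.24. Of the 8, CLV3, CLE21 and CLE43 were on dim features, with means of 1.69, 2.08 and 2.99. The lower quartiles of the arrays were 2.92 to 3.12. The others of the 8 had means of 4.94 or more. CLE14 had the largest positive difference, 2.92 (SE 0.24, limma adjusted p 1.61e-05), and CLE42 the largest negative one, -1.85 (SE 0.12, limma adjusted p 3.67e-06). Estradiol moved none of the 27 measured pathway genes other than CIK2 and CIK4 past the limma threshold in roots (0 at an unadjusted p under 0.05, against 3.75% of all features) or in shoots (3 at an unadjusted p under 0.05, against 8.14% of all features). Their medians were -0.05 in roots and -0.05 in shoots, against -0.01 over all features in each organ.

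**Figure D4:**
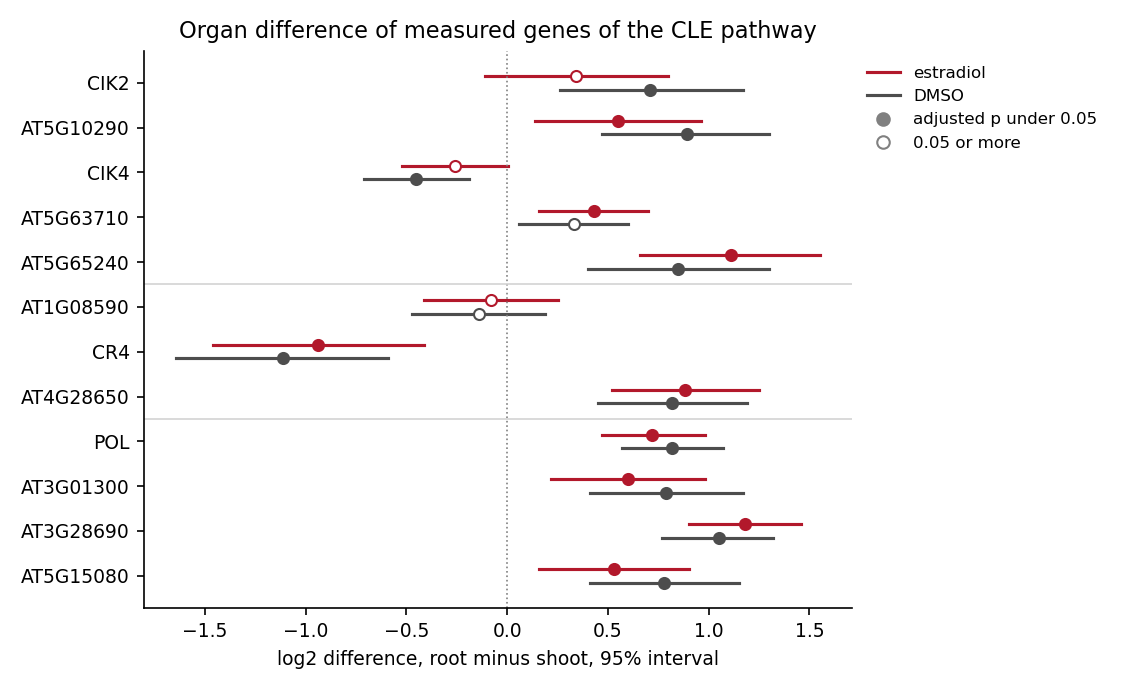
Root minus shoot log2 difference with its 95% interval for the 12 measured pathway genes other than CLE peptides. Values under estradiol (red) and DMSO (grey) are from the 10 arrays. Grey lines part the non-SERK list, the receptors and the downstream genes, and filled points passed the limma threshold. CIK4 lies at -0.26 under estradiol and -0.45 under DMSO, on the opposite side of 0 from the 4 other genes of that list.

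The genes whose profiles lay nearest to each CIK gene were found among 7901 genes with a mean of at least 5, as the root mean square difference over the 10 arrays after each gene was set to its own mean. For CIK2, whose own values spread by 0.329 on that measure, the nearest were AT3G01590 at 0.118, AT5G53010 and AT2G47020 at 0.134, AT5G37710 at 0.141 and AT2G25450 at 0.142. Of these, AT3G01590 read 5.95 to 6.46 in roots and 5.66 to 6.05 in shoots, so that it overlapped slightly between organs. AT5G37710 read 5.95 to 6.20 in roots and 5.42 to 5.70 in shoots, with no overlap.

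For CIK4, which spread by 0.205, the nearest genes were AT1G80280 at 0.064, AT4G17180 at 0.067, AT3G11560 and AT1G52310 at 0.071 and AT2G40630 at 0.073. AT4G17180 read 5.08 to 5.28 in roots and 5.42 to 5.69 in shoots. AT1G80280 read 8.21 to 8.29 in roots and 8.48 to 8.87 in shoots, on a brighter feature. All 5 were lower in roots than in shoots, as CIK4 was, with organ differences under DMSO of -0.46 to -0.33. This likeness follows from how they were chosen, on the same arrays.

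The nearest measured genes along the chromosome, by gene order in assembly TAIR10.1, were chosen after the values of the CIK genes had been seen. AT2G23960, next to CIK2, was higher in roots under DMSO by 1.85 (SE 0.21, limma adjusted p 0.000136). AT2G23910, on the other side with 4 genes between, was higher by 2.43 (SE 0.31, limma adjusted p 0.000253). AT5G45760, on one side of CIK4 with 2 genes between, was lower in roots, at -0.74 (SE 0.12, limma adjusted p 0.00107). AT5G45790, directly on the other side, had 0.18 (SE 0.22, limma adjusted p 0.577). Over all features 19.3% were higher and 19.9% lower in roots in this comparison.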

How the data were processed

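The deposited table held 1 log2 value per feature and array, for 38408 features on 12 arrays. The authors' values came from Affymetrix Expression Console 1.3, per the submitters' processing notes, and its settings are not known here. The log2 scale was read from the range of the deposited values. Features were named through the platform annotation, and 16574 of 16722 features with 1 gene matched the RefSeq gene table of TAIR10.1. Of 17 CLE genes, 7 kept the annotation's symbol.

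Groups came from the sample titles. The source names, which contradict them, were not used. A mean for each of the 4 groups was fitted to the 10 arrays (limma 3.58.1, R 4.3.3, lmFit and eBayes, two-sided), with Benjamini-Hochberg adjustment over all features and a threshold of 0.05. Intervals are 95% and unadjusted. CIK2 minus CIK4 was tested by exact permutation of the organ labels. Alternatives covered all 12 arrays, array weights, trend, replicate block, a filter, scaling, compared groups alone, single-gene features and each array left out. Simulated data with known changes were used to test the fit.

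The pair, the set of 10 arrays and the lists were chosen with earlier results of these data known. The named genes were the pair, the markers, list members and the 5 nearest profiles of each CIK gene. The nearest measured genes along the chromosome were added. The plan to name up to 8 list members per comparison, those with the smallest p, was not kept. Between organs under DMSO, AT1G08590 (unadjusted limma p 0.37) was described above, for example, and CLE26 (unadjusted limma p 0.000784) was not. The number of arrays limits the precision.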

Additional observations from a re-analysis of the deposited data

How the results depend on the processing

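On all 12 arrays as titled, the organ difference under DMSO was 0.38 for CIK2 and -0.32 for CIK4, and CIK2 minus CIK4 differed between organs by 0.47, none past the threshold. The estradiol effect in roots changed sign there, to 0.11 for CIK2 and -0.13 for CIK4. With a replicate block the organ difference of CIK2 under DMSO was 0.71 (limma adjusted p 0.0589), that of CIK4 stayed past the threshold, and the root effect of CIK4 was -0.0048. Deviations of 13 same-numbered pairs of arrays correlated at -0.021 to 0.118, with 1 pair over 0.1. Those of 24 pairs with other numbers correlated at -0.118 to 0.112, also with 1 pair over 0.1. Most same-numbered pairs correlated positively and most other pairs negatively, but all these correlations were weak. Deviations were taken from each group mean, and in a group of 2 arrays they mirror each other. Negative values among the other pairs thus follow in part from positive same-numbered ones and are not a separate observation. Whether the replicate numbers pair the arrays was not tested. Leaving out each array in turn gave 0.46 to 0.97 for CIK2 and -0.51 to -0.39 for CIK4 under DMSO, -0.47 to 0.031 and -0.05 to 0.06 for their root effects, 0.05 to 0.25 and -0.28 to -0.09 for their shoot effects, 0.12 to 0.62 and -0.29 to -0.10 for the difference of these effects, 0.23 to 0.46 and -0.35 to -0.16 for the organ difference under estradiol, and 0.78 to 0.99 for CIK2 minus CIK4, whose exact permutation p was 0.0159 each time, the smallest possible. That p was again fixed by the separation of both genes between the organs. The causes of the shifts were not tested. With the remaining 7 settings on the 10 arrays, both calls under DMSO held and no effect of estradiol passed. Between organs under DMSO, 15038 of 38408 features were past the threshold, and 0 were on 12 arrays. When only the 16722 features with 1 gene were tested, 7692 passed. Under estradiol 15096 of 38408 passed, 1 did on 12 arrays, and 7632 of 16722 did with single-gene features. The counts with single-gene features are of a smaller total, so they do not show fewer calls in proportion. Leaving out single arrays gave 0 to 23 features for the difference of the estradiol effects and 0 to 4 for shoots. Averaging several features per gene was not run, because each CIK gene had 1.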
